A study of Mus musculus with 4 samples.

Results

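The PAF1 complex and its elongation partners were read after knockdown of either subunit of the H2B ubiquitin ligase. The cells were RIF-1, which grew out of a mouse fibrosarcoma that followed irradiation. The members were chosen by function, with earlier results of these data known. They are the PAF1 complex subunits Paf1, Ctr9, Leo1, Cdc73 and Rtf1, the FACT subunits Supt16 and Ssrp1, and the kinase Cdk9. Of these 8 genes 5 had a named probe, in 7 probes that all held values on all 4 arrays. They stand among 8676 named genes that were measured on every array. Leo1, Rtf1 and Ssrp1 had no probe named by the platform annotation and were not analysed here.

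The PAF1 complex travels with RNA polymerase II along transcribed genes and is needed for the ubiquitination of histone H2B by the Bre1 ligase, which it helps to bring to the polymerase. FACT is a histone chaperone that takes nucleosomes apart and rebuilds them around the moving polymerase, and H2B ubiquitin is known to aid its work. CDK9 is the catalytic subunit of P-TEFb, the kinase that releases paused polymerase into elongation by phosphorylating the polymerase tail, DSIF and NELF. Bre1a is the product of Rnf20 and Bre1b that of Rnf40, and the 2 proteins pair in the ligase.

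Each of the 4 arrays set RNA of 1 knockdown, labelled with Cy5, against RNA of control cells of the same line, labelled with Cy3. Bre1a knockdown was hybridised against cells with no knockdown on 1 array and against mock cells, whose knockdown targeted GFP, on another, and Bre1b knockdown likewise. The sources used here give no reagent, dose or time for the knockdown, and no label says whether the RNAs came from separate cultures. The spread behind each p-value is thus that of these arrays alone and may be technical, and each SD over 2 arrays includes the difference between the 2 controls. The reported fit takes that difference out of the spread behind its p-values. No dye was swapped, so a dye bias of a gene and an effect of a knockdown cannot be told apart. Both knockdowns were compared with the same kinds of control, which may be the same extracts. The log2 ratios, knockdown over control, hold no expression level, and fewer cells and less RNA per cell cannot be told apart in them.

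The arrays held values for 19874 to 22255 spots, and medians over the tested genes lay between -0.003 and 0.05. Of the fibroblast markers 10 of 12 had values on all 4 arrays, against 0 of 10 leukocyte markers, 3 of 8 epithelial and 1 of 7 endothelial markers. Only 6 of the leukocyte and 5 of the epithelial markers had a named probe, while all fibroblast and endothelial markers had one. Ratios cannot rank their levels. With Bre1a knockdown 1 of the 10 fibroblast markers rose and 5 fell (median -0.27), and with Bre1b knockdown 0 rose and 3 fell (median -0.15). Over all tested genes 21.1% rose and 19.9% fell with Bre1a knockdown, and 32.3% rose and 28.2% fell with Bre1b knockdown. Of the 3 epithelial markers 2 fell with each knockdown (medians -1.21 and -0.39), and the endothelial marker Eng was at -0.41 with Bre1a knockdown and fell to -1.15 with Bre1b knockdown. The part of these markers in the members' values was not tested. Rnf20 was at -1.60 and -1.35 on the Bre1a arrays, and Rnf40 was at -1.49 and -1.23 on the Bre1b arrays. The targeted gene was thus low on each array of its own knockdown and above control on the arrays of the other. Those opposite values were 0.42 and 0.51 for Rnf20 and 0.17 and 0.65 for Rnf40.

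Promoters are shown for the 4 measured members that RefSeq's table of promoters for GRCm38.p6 holds. Each runs 5′ to 3′ on the gene's strand from 250 bases before the start site to 50 after it. Capitals mark matches, on either strand, of the ETS core CCGGAAG, the GC box GGGCGG, the CCAAT box CCAAT, the E-box CACGTG and the TATA box TATAAA. The Paf1 window is chr7:28392746-28393045 on the plus strand. The others lie on the minus strand, at chr1:143702844-143703143 for Cdc73, chr14:52197190-52197489 for Supt16 and chr2:32712735-32713034 for Cdk9.
Paf1: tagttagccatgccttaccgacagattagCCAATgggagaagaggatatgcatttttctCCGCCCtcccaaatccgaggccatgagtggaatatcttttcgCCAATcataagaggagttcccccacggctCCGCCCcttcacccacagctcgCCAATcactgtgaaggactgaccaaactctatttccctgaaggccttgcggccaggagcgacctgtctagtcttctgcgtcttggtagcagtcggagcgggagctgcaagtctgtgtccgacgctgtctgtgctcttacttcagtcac
Cdc73: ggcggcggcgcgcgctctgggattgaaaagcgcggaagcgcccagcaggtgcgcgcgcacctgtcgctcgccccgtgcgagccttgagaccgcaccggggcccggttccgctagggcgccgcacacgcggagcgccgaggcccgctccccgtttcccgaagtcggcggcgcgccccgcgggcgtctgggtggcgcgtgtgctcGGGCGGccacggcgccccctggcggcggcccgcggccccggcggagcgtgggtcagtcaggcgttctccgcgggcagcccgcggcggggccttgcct
Supt16: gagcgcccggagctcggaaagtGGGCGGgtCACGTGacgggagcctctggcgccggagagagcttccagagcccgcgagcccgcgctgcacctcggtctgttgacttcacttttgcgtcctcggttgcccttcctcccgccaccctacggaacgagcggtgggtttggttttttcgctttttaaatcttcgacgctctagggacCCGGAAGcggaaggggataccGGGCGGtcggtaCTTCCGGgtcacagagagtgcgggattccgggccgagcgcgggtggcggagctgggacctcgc
Cdk9: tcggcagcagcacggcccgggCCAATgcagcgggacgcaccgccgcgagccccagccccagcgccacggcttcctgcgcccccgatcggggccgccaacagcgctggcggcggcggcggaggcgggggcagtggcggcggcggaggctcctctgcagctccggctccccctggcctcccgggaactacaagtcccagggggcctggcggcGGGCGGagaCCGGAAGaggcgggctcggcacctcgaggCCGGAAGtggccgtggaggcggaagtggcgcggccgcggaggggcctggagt

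The GC box was found in all 4 windows and in 35.7% of the 32851 promoters of the table. The ETS core occurred 2 times in Supt16 and 2 times in Cdk9, and in 8.86% of all promoters. CCAAT boxes numbered 3 in Paf1 and 1 in Cdk9, with 37.4% of all promoters holding one. Supt16 alone of the 4 held the E-box, which 7.15% of promoters hold, and no window held the TATA box, which 13.6% hold. The G and C content was 79.7% for Cdc73, 78.3% for Cdk9, 65.7% for Supt16 and 54.0% for Paf1, beside a median of 52.7% over the table. The shares are over all promoters and were not matched for G and C content. These matches describe the letters of the windows and were not tied to any binding or to the members' ratios.

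After Bre1b knockdown the 5 measured members were above control on both arrays. Cdc73, the PAF1 complex subunit also known as the tumour suppressor parafibromin, stood highest at 148% of control. Cdk9 was at 129%, Supt16 at 127%, Paf1 at 123% and Ctr9 at 120%. After Bre1a knockdown the same genes were closer to control, from 108% for Cdc73 to 123% for Supt16. In all, 19 of the 20 gene values were above 0, and 4 of the 5 genes were above 0 on all 4 arrays, as were 24.0% of all tested genes.

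**Figure D1:**
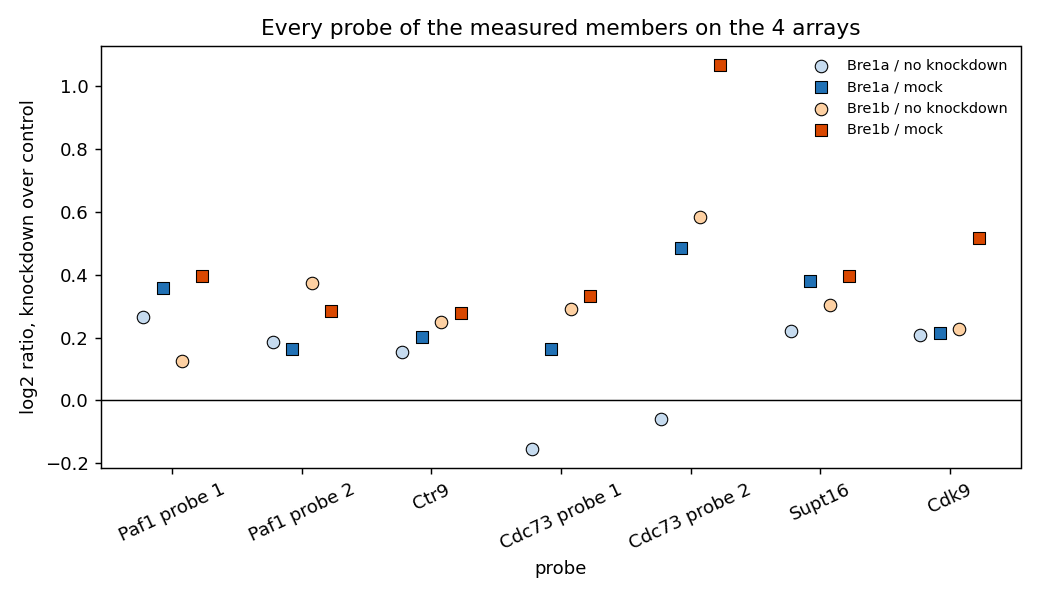
Log2 ratio of knockdown over control (vertical axis) for each of the 7 member probes (horizontal axis) on the 4 arrays, 1 point an array, with circles for the control without knockdown and squares for mock. Of 28 points 26 lie above 0, and the exceptions are the 2 Cdc73 probes on the array of Bre1a against no knockdown.

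Paf1 (chromosome 7, 28392996 to 28399383 in GRCm38.p6), which gives the complex its name, had 2 probes. Its first probe was at 0.27 and 0.36 for Bre1a against no knockdown and against mock, and at 0.13 and 0.40 for Bre1b. The second was at 0.19 and 0.17 for Bre1a and at 0.38 and 0.29 for Bre1b. All 8 values were above 0, and the order of the 2 knockdowns was not the same for the 2 probes. Averaged over probes, Paf1 rose to 0.24 ± 0.03 (SD, n = 2) with Bre1a knockdown (limma adjusted p = 0.0365) and to 0.30 ± 0.06 with Bre1b knockdown (adjusted p = 0.0182). Fitted alone, neither probe passed for Bre1a (limma adjusted p = 0.0513 and 0.0777), and both passed for Bre1b (adjusted p = 0.0499 and 0.022). The Bre1a call of Paf1 held in 4 of 8 alternatives that kept the control term. The probes lay 0.14 apart for Bre1a and 0.07 apart for Bre1b, beside medians of 0.17 and 0.19 over 2821 genes with several probes.

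Ctr9 (chromosome 7, 111028951 to 111056377), the large subunit that holds the complex together through its tetratricopeptide repeats, had 1 probe. It was at 0.15 and 0.20 on the Bre1a arrays and at 0.25 and 0.28 on the Bre1b arrays, against no knockdown and mock in that order. Its 4 values lay closer together than those of any other of the 7 probes, and the Bre1a and Bre1b arrays did not overlap. Ctr9 rose with Bre1b knockdown (0.27 ± 0.02, limma adjusted p = 0.0200), while its value with Bre1a knockdown, 0.18 ± 0.03, had adjusted p = 0.0521.

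Cdc73 (chromosome 1, 143603276 to 143702893) varied most. Its first probe was at -0.15 and 0.16 for Bre1a against no knockdown and mock, and at 0.29 and 0.33 for Bre1b. Its second probe was at -0.06 and 0.48 for Bre1a, and at 0.59 and 1.07 for Bre1b. Both probes had their lowest value on the array of Bre1a against no knockdown and their highest on that of Bre1b against mock, and on both the Bre1a and Bre1b arrays were separate. The second probe gave the larger values. They lay 0.52 apart for Bre1b, more than in 79.2% of genes with several probes, and 0.21 apart for Bre1a. Averaged, Cdc73 rose to 0.57 ± 0.19 with Bre1b knockdown (n = 2, limma adjusted p = 0.0122). With Bre1a knockdown it was at 0.11 ± 0.30 (adjusted p = 0.196), with values of opposite sign against the 2 controls. Fitted alone, the first probe did not pass for Bre1b (limma adjusted p = 0.0586) and the second did (adjusted p = 0.0108).

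Supt16 (chromosome 14, 52160419 to 52197239), the larger FACT subunit, which contacts H2A and H2B, was at 0.22 and 0.38 for Bre1a and at 0.30 and 0.40 for Bre1b, against no knockdown and mock. The 2 knockdowns overlapped, and each was higher against mock. Supt16 rose with Bre1a knockdown (0.30 ± 0.11, n = 2, limma adjusted p = 0.0303) and with Bre1b knockdown (0.35 ± 0.07, adjusted p = 0.0150).

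Cdk9 (chromosome 2, 32705782 to 32712784) was at 0.21 and 0.22 for Bre1a and at 0.23 and 0.52 for Bre1b, with the controls in the same order. A single array, Bre1b against mock, stood apart from the other 3. That array was the widest over all spots, with an SD of 1.14 beside 0.98 to 1.01 on the others. It also held the highest gene value of every measured member and of Eaf1. After scaling to 1 spread Cdk9 was at 0.31 with Bre1b knockdown (adjusted p = 0.0636) and Cdc73 at 0.48 (adjusted p = 0.0432). Cdk9 rose with Bre1b knockdown (0.37 ± 0.21, n = 2, limma adjusted p = 0.0363), and with Bre1a knockdown it was at 0.21 ± 0.01 (adjusted p = 0.117).

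**Figure D2:**
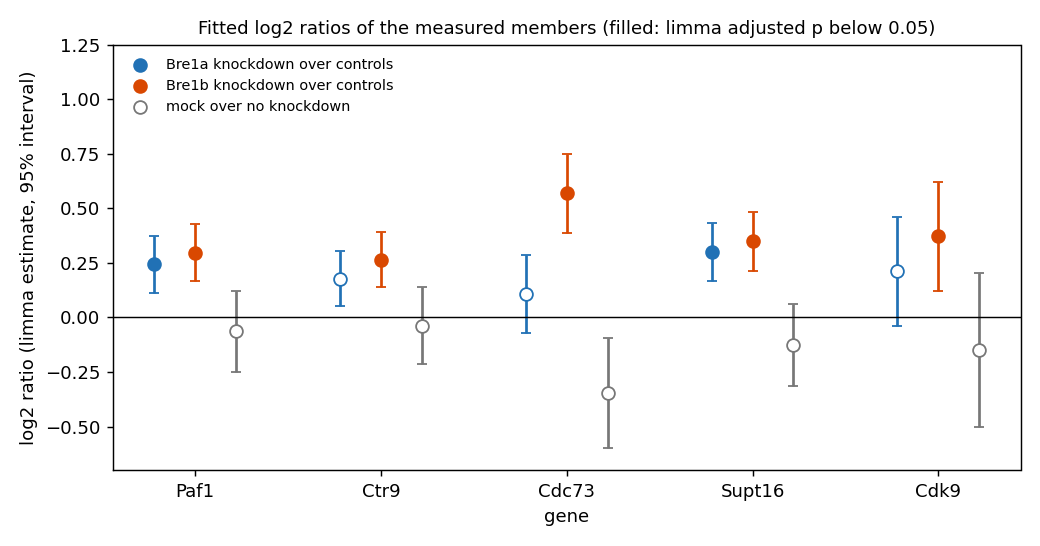
Limma estimates of the log2 ratio (vertical axis) with 95% intervals for the 5 measured members (horizontal axis), for Bre1a knockdown, Bre1b knockdown and mock over no knockdown, with filled points for adjusted p below 0.05. All 5 Bre1b points are filled and lie between 0.27 and 0.57, and the 5 mock points are open and below 0.

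By count, 2 of 5 measured members rose and 0 fell with Bre1a knockdown, where limma called 40.9% of all tested genes, 21.1% higher and 19.9% lower. With Bre1b knockdown 5 of 5 rose, where it called 60.4% of all genes, 32.3% higher and 28.2% lower. A share of 2 in 5 was thus near the 40.9% called in either direction, and both rose, as did 21.1% of all genes. The counts of 5 genes were not tested against these shares. The member median was 0.21 for Bre1a and 0.35 for Bre1b, beside 0.03 and 0.02 over all tested genes. On single arrays the 5 genes lay between the 68.4 and 89.4 percentiles of the tested genes, except Cdc73 at the 35.6 percentile for Bre1a against no knockdown. In the order of the Bre1b values, Cdc73, Cdk9, Supt16, Paf1 and Ctr9, the 95% intervals of neighbours overlapped, as did those of the first and last (0.3891 to 0.7479 and 0.1405 to 0.3895).

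These calls depend on the control term of the fit. Without the control term, limma called 0 of 5 members with either knockdown. Of all genes it then called 0.0231% for Bre1a, 0.0115% higher and 0.0115% lower, and 1.87% for Bre1b, 0.426% higher and 1.44% lower. An unadjusted p below 0.05 was then held by 1 member and 2078 of the 8676 tested genes for Bre1a. For Bre1b it was held by 5 members and 3424 genes. The adjusted p of the members ran from 0.184 to 0.672 for Bre1a and from 0.0842 to 0.105 for Bre1b. Fits with any 1 array left out rested on a lone array for 1 knockdown. In them Cdc73 ran from -0.11 to 0.32 for Bre1a. Those fits also lack the control term, so they do not show what the missing array alone changes. Scaling the arrays to 1 spread left 0 members for Bre1a and 2 for Bre1b, where 23.7% and 35.6% of all genes were called. Each array also held a single value shared by 683 to 803 of its spots, at 0.079 and 0.148 for Bre1a and at 0.110 and -0.079 for Bre1b, and member probes lay above it in 26 of 28 cases. With the arrays centred on that value, 0 members passed for Bre1a and 1, Cdc73, for Bre1b, where 15.8% and 36.7% of all genes were called. That centring shifted the median of all genes by -0.11 for Bre1a and -0.02 for Bre1b, and changed the share of higher among all Bre1a calls from 51.5% to 15.5%.

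Set against each other, the 2 knockdowns differed in Cdc73, which was 0.46 lower on the log2 scale with Bre1a than with Bre1b knockdown (95% interval -0.71 to -0.21, limma adjusted p = 0.04999). Limma called 24.9% of all genes in this comparison, 13.2% lower and 11.7% higher with Bre1a. For the other 4 members the difference did not pass, and its intervals were -0.24 to 0.13 for Paf1, -0.26 to 0.09 for Ctr9, -0.24 to 0.14 for Supt16 and -0.51 to 0.19 for Cdk9. These intervals leave room for differences about as large as the knockdown values themselves. In Cdc73, Ctr9 and Cdk9 both Bre1a arrays lay below both Bre1b arrays, a pattern found in 26.0% of all genes, and 0 of 5 showed the opposite pattern, found in 23.3%. The Cdc73 call lies at the threshold. It was lost without the control term (-0.46, adjusted p = 0.398), after scaling to 1 spread (-0.40, adjusted p = 0.169), after centring on the repeated value (-0.56, adjusted p = 0.107) and with its larger probe alone (-0.61, adjusted p = 0.0510). The direction was the same in these 4 fits, and the size ran from slightly smaller to larger. With any 1 array left out, in fits that also lack the control term, the Cdc73 difference ran from -0.675 to -0.24. With every probe fitted on its own 0 of 18620 probes were called between the knockdowns.

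The 2 controls were compared through the same arrays. The kind of control is also the replicate number, so an effect of mock and one of replicate cannot be told apart. In mock relative to cells with no knockdown limma called 0 of the 5 members, against 13.4% of all genes, 7.26% higher and 6.12% lower. An unadjusted p below 0.05 was held by 3854 of the 8676 tested genes and by 1 member. That member was Cdc73, at -0.35 (95% interval -0.60 to -0.09, adjusted p = 0.0757). The others ran from -0.15 for Cdk9 to -0.04 for Ctr9, so that each of the 5 estimates was below 0. These estimates restate that the members' ratios were on average higher against mock. The widest array, Bre1b against mock, enters each of them. After scaling to 1 spread Paf1 and Ctr9 were at 0.02 each. In that setting limma called 0 of all genes between the controls, as it did with a single probe per gene. An unadjusted p below 0.05 was then held by 1987 and 3685 genes.

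By Euclidean distance over the 4 arrays, the tested genes nearest to Cdc73, the member of largest mean size, were Mkln1 (0.073), Sars (0.081) and Fam135a (0.097). Mkln1 was at -0.13, 0.34, 0.37 and 0.70, in the order Bre1a against no knockdown and mock, then Bre1b against no knockdown and mock. Cdc73 was at -0.11, 0.32, 0.44 and 0.70.

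Around the members, 42 of 54 other genes of 8 elongation lists were measured. Of these 16 rose and 3 fell with Bre1a knockdown, and 26 rose and 6 fell with Bre1b knockdown, with medians of 0.20 and 0.29. Of all tested genes 21.1% rose and 19.9% fell with Bre1a knockdown and 32.3% rose and 28.2% fell with Bre1b knockdown, and the counts of each list stand against these shares. The remaining PAF1 complex gene on the arrays, Wdr61, whose product also serves the Ski complex, was at 0.23 and 0.21 on the Bre1a arrays and at 0.23 and 0.28 on the Bre1b arrays, and rose in both knockdowns (limma adjusted p = 0.0426 and 0.0240).

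Of the P-TEFb list, which includes Cdk9, 3 of 5 measured genes rose and 1 fell with Bre1a knockdown, and 4 rose and 1 fell with Bre1b knockdown. Ccnt1, the cyclin that activates CDK9, rose with Bre1b knockdown to 0.59 ± 0.12, and was at 0.26 ± 0.18 with Bre1a knockdown (limma adjusted p = 0.0102 and 0.0373). Hexim1, which binds P-TEFb and holds it inactive, was at -0.59 and -0.47 for Bre1a and at -0.25 and -0.11 for Bre1b. It thus lay below control on all 4 arrays, lower with Bre1a knockdown, and fell in both (-0.53 ± 0.08 and -0.18 ± 0.10, adjusted p = 0.0223 and 0.0393). Larp7 (0.33 ± 0.16 and 0.24 ± 0.15) and Mepce (0.32 ± 0.17 and 0.28 ± 0.16), both parts of the 7SK particle that stores P-TEFb, rose with each knockdown.

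Of the DSIF and NELF genes, substrates of CDK9 at the pause, 3 of 6 rose and 0 fell with Bre1a knockdown, and 4 rose and 1 fell with Bre1b knockdown, the last being the NELF subunit Nelfe (-0.26 ± 0.08). The DSIF subunits Supt4a (0.40 ± 0.05 and 0.61 ± 0.05) and Supt5 (0.39 ± 0.15 and 0.54 ± 0.32) rose in both, as did the NELF subunit Nelfa (0.29 ± 0.28 and 0.53 ± 0.27). Nelfa was at 0.09 and 0.48 for Bre1a and at 0.34 and 0.73 for Bre1b, against no knockdown and mock. In the super elongation complex list 1 of 7 rose with Bre1a knockdown and 0 fell, and 4 rose and 1, the scaffold gene Aff4 (-0.32 ± 0.06), fell with Bre1b knockdown. Eaf1, a partner of the ELL factors, was at 0.16 and 0.72 for Bre1a and at 1.02 and 2.83 for Bre1b. The array of Bre1b against mock again stood highest, and Eaf1 rose with Bre1b knockdown (1.93 ± 1.29, limma adjusted p = 0.0226). Its relative Eaf2 (0.90 ± 0.35) rose with Bre1b knockdown, and Ell rose in both (0.44 ± 0.12 and 0.75 ± 0.18).

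In the Spt6, TFIIS and elongin list 2 of 8 rose and 1 fell with Bre1a knockdown, and 3 rose and 3 fell with Bre1b knockdown. The TFIIS genes, whose products rescue stalled polymerase, were split. Tcea1 rose in both (0.39 ± 0.25 and 0.52 ± 0.31). Tcea3 (-1.13 ± 0.44) and Tcea2 (-0.63 ± 0.64) fell with Bre1b knockdown, as did the elongin gene Eloc (-0.51 ± 0.42). Tcea2 was also the gene called lower with Bre1a knockdown (-0.24 ± 0.73, limma adjusted p = 0.047). Its 2 arrays had opposite signs, with 0.28 against no knockdown and -0.76 against mock, so its direction depended on the control. Without the control term its adjusted p was 0.690. Supt6, the histone chaperone Spt6, rose in both (0.32 ± 0.31 and 0.41 ± 0.35). For Bre1a and Bre1b it was at 0.10 and 0.17 against no knockdown and at 0.54 and 0.66 against mock. Supt6 was also called between the controls (-0.46 for mock relative to no knockdown, limma adjusted p = 0.0478). The size of its rise thus depended on the control.

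The list of kinases and phosphatases of the polymerase tail also holds partners of these enzymes. Of its 10 measured genes 3 rose and 1, the phosphatase gene Ssu72 (-0.24 ± 0.12), fell with Bre1a knockdown. With Bre1b knockdown 6 rose and 0 fell. The TFIIH kinase Cdk7 (0.41 ± 0.20 and 0.67 ± 0.13) and cyclin K, Ccnk (0.44 ± 0.31 and 0.73 ± 0.16), rose in both. So did Rprd1a (0.25 ± 0.28 and 0.36 ± 0.31). Its values were 0.045 and 0.14 against no knockdown and 0.45 and 0.57 against mock, for Bre1a and Bre1b. Between the controls Rprd1a was also called (-0.42 for mock relative to no knockdown, limma adjusted p = 0.0495). Mnat1, the assembly factor of the CDK7 kinase, rose with Bre1b knockdown (0.39 ± 0.04) and was at -0.04 ± 0.01 with Bre1a knockdown. Of the polymerase II subunits 3 of 6 rose with Bre1a knockdown and 5 with Bre1b knockdown, and 0 fell. Polr2d (0.46 ± 0.07 and 0.65 ± 0.27) and Polr2g (0.37 ± 0.09 and 0.30 ± 0.18) rose in both. Polr2c rose with Bre1a knockdown, at 0.364 on both arrays, and Polr2j (0.43 ± 0.03) and Polr2k (0.42 ± 0.23) rose with Bre1b knockdown. Nelfe, Aff4, Eloc and Ssu72 were named after their values were seen. Without the control term 0 of the 42 genes were called with either knockdown, the lowest adjusted p being 0.106 for Hexim1 with Bre1a and 0.0575 for Supt4a with Bre1b.

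**Figure D3:**
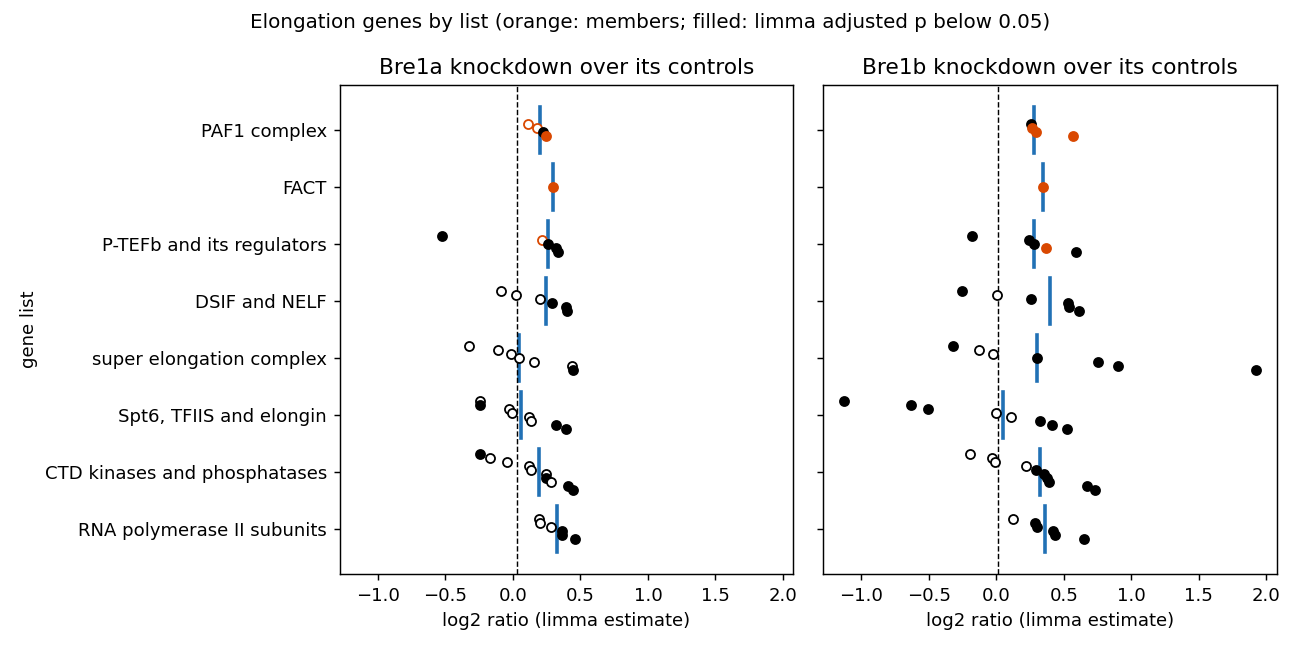
Limma estimates of the log2 ratio (horizontal axis) for the measured genes of 8 elongation lists (vertical axis), with Bre1a knockdown on the left and Bre1b knockdown on the right. Points are genes, orange for members and filled for adjusted p below 0.05, blue bars are list medians, and the dashed line is the median of all tested genes. List medians lie between 0.04 and 0.32 for Bre1a and between 0.05 and 0.39 for Bre1b.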

How the data were processed

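Total RNA of the 4 RIF-1 comparisons was measured on two-colour arrays. The authors deposited 1 table of log2 ratios of Cy5 (knockdown) over Cy3 (control). The dyes are given per the labels, and the log2 scale was read from the values, as the labels name none. Image analysis, background correction and normalization were not given in the sources used, and intensities were not analysed here. All 4 columns were mapped to samples.

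Of 38784 probes 22204 were named through GEO's platform annotation, with all symbols found by gene ID in RefSeq's GRCm38.p6 table. The 12958 named probes with 4 values were averaged into 8676 genes. Limma 3.58.1 in R 4.3.3 (lmFit and eBayes) fitted each knockdown's coefficient plus a control term, which is also the replicate number in the titles and stands for a shared kind of control. Two-sided p-values were adjusted by Benjamini-Hochberg over the 8676 genes, with a threshold of 0.05. The fit leaves 1 residual and 1.57 prior degrees of freedom, and its Bre1a comparison was tested on simulated data. An exact permutation test of 2 arrays against 2 cannot go below p = 0.333. The number of arrays limits the precision.

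Members and lists were chosen with earlier results of these data known. Named besides the members are both targets, per list and knockdown the 3 called genes of largest mean size, up or down, whose 2 arrays had the same sign, and the 3 genes nearest to the largest member. Nelfe, Aff4, Eloc, Ssu72 and the Tcea2 value with Bre1a knockdown were added after their values were seen. Alternatives were the fit without the control term, other centrings and scaling, other summaries of probes, another eBayes prior, removal of repeated values and leaving out each array. Centring on the repeated value or on the median of tested genes, and fitting single probes, were chosen after seeing the data.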

Additional observations from a re-analysis of the deposited data

Results flagged for a closer look

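The difference between the knockdowns, tested in the same model, passed the threshold for 7 of the genes described. Cdc73 was at -0.46 for Bre1a minus Bre1b (0.11 and 0.57, limma adjusted p = 0.04999). The targets themselves gave -1.94 for Rnf20 and 1.77 for Rnf40 (adjusted p = 0.0372 each). Among the partners, Eaf2 gave -0.86 (0.04 and 0.90, adjusted p = 0.0372), Tcea3 1.13 (-0.01 and -1.13, 0.0372), Mnat1 -0.43 (-0.04 and 0.39, 0.0414) and Hexim1 -0.35 (-0.53 and -0.18, 0.0465). The Bre1a means of Eaf2 and Tcea3 averaged arrays of opposite sign. With Bre1a knockdown Eaf2 was at -0.23 against no knockdown and 0.32 against mock, and Tcea3 at 0.29 and -0.30. Both were also called between the controls (-0.52 and 0.61 for mock relative to no knockdown, limma adjusted p = 0.0475 each). Limma called 24.9% of all genes between the knockdowns. Without the control term it called 0 of 8676 genes, while 1286 had an unadjusted p below 0.05.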

How the results depend on the processing

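Counts follow the order Bre1a, Bre1b, the difference of the knockdowns, and mock against no knockdown. As reported, 2, 5, 1 and 0 members and 3551, 5244, 2161 and 1161 genes were called. With no replicate block, which is the fit without the control term, limma called 0, 0 and 0 members and 2, 162 and 0 genes. An unadjusted p below 0.05 was held by 1, 5 and 0 members and by 2078, 3424 and 1286 genes. Mock against no knockdown could not be fitted in this setting. The replicate number here is the kind of control, so the paired fit is the one reported. With arrays scaled to 1 spread, members numbered 0, 2, 0 and 0 and genes 2058, 3085, 0 and 0. An unadjusted p below 0.05 was reached by 3, 5, 0 and 0 members and by 4075, 4599, 2661 and 1987 genes. In that setting Paf1 (0.00628) and Supt16 (0.012) turned sign between the knockdowns, and Paf1 (0.017) and Ctr9 (0.024) between the controls. With a single probe per gene, 1 member was called for Bre1a and 0 between the knockdowns, 0 genes were called between the knockdowns or between the controls, although 3926 and 3685 had an unadjusted p below 0.05, and Paf1 was at 0.0505 between the knockdowns. Centred on the repeated value, members numbered 0, 1, 0 and 0 and genes 1367, 3180, 347 and 96, and Cdc73 was at -0.00475 for Bre1a. Centred on the median of the genes tested, 1 member, Supt16, was called for Bre1a. With a trended robust prior 2120 genes differed between the controls. With each array left out in turn, without the control term since no residual degree of freedom was left with it, and with a lone array taken to vary like the others, members called stayed at 0 for both knockdowns and their difference. Genes called ran from 7 to 131 for Bre1a, from 0 to 1142 for Bre1b and from 0 to 70 between the knockdowns. In these fits Cdc73 ran from -0.11 to 0.32 for Bre1a, negative without the array against mock, and Supt16 from -0.13 to 0.03 between the knockdowns. The cause of these changes was not tested. Centring on the repeated value changed the share of higher calls from 51.5% to 15.5% for Bre1a and from 53.4% to 44.9% for Bre1b. Of the values of single genes over all alternatives 458 kept their direction and side of the threshold, 274 no longer passed, 2 newly passed and 8 changed sign.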
